A study of Homo sapiens with 28 samples.

Results

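The clustered protocadherins are 53 protein-coding genes in a row on human chromosome 5, and their chromatin was read here in 12 histone mark peak lists from myeloma cells. The genes were chosen by symbol, as the protein-coding genes whose names begin with PCDHA, PCDHB or PCDHG followed by a letter or number and which lie at that locus; the rule uses no measured value. They comprise 15 PCDHA, 16 PCDHB and 22 PCDHG genes, of 19817 protein-coding genes on chromosomes 1 to 22 and X. They extend from 140786140, the PCDHA1 start, to 141512975, the shared end of the PCDHG genes (GRCh38), a distance of 727 kb.

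Clustered protocadherins are cadherin-type adhesion proteins of the cell surface, best known from neurons, where each cell uses its own small set of them and tells its own branches from those of other cells. Each PCDHA and PCDHG gene has a variable first exon with its own promoter, which is spliced to constant exons that the whole family shares, while PCDHB genes stand alone and lack constant exons. In neurons, CTCF and cohesin bring a chosen promoter to distant enhancers, and unchosen promoters are kept silent by DNA methylation and repressive histone marks.

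All samples are TKO cells, a line with the labelled genotype KMS-11 WHSC1(+/-) and cell type plasma cell. KMS-11 is a multiple myeloma line, and WHSC1 is another name of NSD2, the histone methyltransferase that deposits H3K36me2. The 4 groups are TKO cells as such (TKO) and TKO cells expressing NSD2 in its wild type (WT), D1240A or F1295A form. All 4 therefore carry the same WHSC1(+/-) background, and whether a group is 1 clone is not given in the sources used here. ChIPmentation, in which a transposase adds adapters to immunoprecipitated chromatin, was run for H3K36me2, H3K27me3 (the Polycomb mark) and H3K27ac (the mark of active promoters and enhancers). The study asked what mutant NSD2 does to these marks.

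Each list was called on both replicates of a condition and mark together, so there is 1 list for each group and mark, no replicate error and no test. After removal of duplicates, which made up 61% to 87% of the fragments, the H3K36me2 lists rest on 62550152 to 69211726 fragments, the H3K27me3 lists on 31097592 to 44812488 and the H3K27ac lists on 67939521 to 73613753. Of 10 plasma cell markers, 8 had an H3K27ac peak within 1 kb of the start in each list, among them IRF4, PRDM1, XBP1 and JCHAIN, while SDC1 and CD38 had none. Of 10 neuron markers, SYT1 had such a peak in all 4 lists and SYP in every list but F1295A. The plasma cell marker SLAMF7, one of the 8, was read at both ends. It also had H3K36me2 and H3K27me3 peaks within 1 kb of an end in each list, so its H3K27ac peak did not stand alone.

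Most promoters of each family share letters around a common core, with exceptions in each. The 4 letters CGCT are the core of the conserved sequence element known in clustered protocadherin promoters. The RefSeq promoter table (GRCh38.p14, 250 bases before to 50 after each start) held 47 of the 53 genes. CGCT, searched on both strands, was present in 46 of these 47 windows and in 81.0% of all 15811 protein-coding windows, so the core alone is common. The stretches below, of 30 bases and read 5′ to 3′, show the core in capitals with its neighbours, and where a window holds several cores, the one nearest to 60 bases before the start. They include genes with the family form, the C-type genes of the PCDHA and PCDHG families and PCDHB14, the only member with a peak at its start.

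PCDHA1 (chr5:140786092-140786121, + strand): cacatgatgtCGCTgtacaccacaaagtct
PCDHA2 (chr5:140794787-140794816, + strand): cacatgatgtCGCTgtccaccatagagtgt
PCDHA6 (chr5:140827903-140827932, + strand): cgcatgatgtCGCTgtctaccatgaagtta
PCDHAC1 (chr5:140926226-140926255, + strand): aaggtgtggtCGCTcacgttcaccgtcccg
PCDHAC2 (chr5:140966425-140966454, + strand): gccctcctacCGCTccctttccccctcccc
PCDHB1 (chr5:141051280-141051309, + strand): ggagttgagtCGCTcaatgcaaattttctt
PCDHB13 (chr5:141213871-141213900, + strand): cgcgtggtggCGCTgcaggataagaaggca
PCDHB14 (chr5:141223269-141223298, + strand): cacatggtggCGCTacaggataagacgaaa
PCDHB15 (chr5:141245320-141245349, + strand): cgcatggtggCGCTgcaggctaaggcttca
PCDHGA1 (chr5:141330409-141330438, + strand): ctgtgggcgcCGCTgttcactaatctggta
PCDHGA2 (chr5:141338709-141338738, + strand): ctctgagcgtCGCTgttgaccacctaagga
PCDHGB1 (chr5:141350031-141350060, + strand): ctctgggcgcCGCTgtcgaccaaaaggaag
PCDHGC3 (chr5:141475905-141475934, + strand): ccaatgaagaCGCTggagatcgggcccctg
PCDHGC4 (chr5:141484958-141484987, + strand): gcccgggagcCGCTgtctgccaatcgggtg

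In PCDHA the common form was GATGTCGCT, found on either strand in 9 of 13 windows, in none of the PCDHB or PCDHG windows and in 0.139% of all protein-coding windows. In PCDHB it was GGTGGCGCT, in 13 of 14 windows, in none of the other 2 families and in 0.658% of all windows. PCDHG windows held GCCGCTGT in 11 of 20 (1.88% of all windows) or GTCGCTGT in 6 of 20, and GTCGCTGT also occurred in 5 of 13 PCDHA windows (0.923% of all). Members without their family's form include PCDHA11, PCDHAC1, PCDHAC2 and PCDHB1. These forms overlap the CGCT core, and they were chosen after the sequences had been seen, so their counts are descriptions. The core shown lay a median of 51.5 bases before the start in PCDHA, 61.5 in PCDHB and 55.5 in PCDHG.

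The promoter of TAF7, a gene between PCDHB and PCDHG that encodes a subunit of the general transcription factor TFIID, lies wholly under H3K27ac peaks in all 4 lists. It is shown beside that of PCDHB14, where no base of the window lies under a peak in any list and the WT list has a peak further downstream. Capitals mark CGCT or, on the other strand, AGCG.

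PCDHB14 (chr5:141223093-141223392, + strand): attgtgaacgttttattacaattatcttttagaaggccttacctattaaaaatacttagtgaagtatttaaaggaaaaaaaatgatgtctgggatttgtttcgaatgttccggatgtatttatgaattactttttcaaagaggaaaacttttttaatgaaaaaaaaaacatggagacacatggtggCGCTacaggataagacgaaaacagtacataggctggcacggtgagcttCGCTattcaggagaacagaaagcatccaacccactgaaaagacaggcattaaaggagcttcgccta
TAF7 (chr5:141320735-141321034, - strand): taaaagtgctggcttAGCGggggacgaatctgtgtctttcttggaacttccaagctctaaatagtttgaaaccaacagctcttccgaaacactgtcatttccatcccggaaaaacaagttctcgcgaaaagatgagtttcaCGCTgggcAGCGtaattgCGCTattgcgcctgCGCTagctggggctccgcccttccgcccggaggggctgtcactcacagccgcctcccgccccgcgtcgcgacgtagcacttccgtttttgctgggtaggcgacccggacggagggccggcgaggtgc

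The PCDHB14 window holds 35.7% G and C, and the TAF7 window 58%. The median was 37.3% over 13 PCDHA windows, 40.8% over 14 PCDHB windows and 42% over 20 PCDHG windows, against 62.7% over all 15811. CpG dinucleotides numbered a median of 7 in the members' windows and 22 in all windows. Among the members with a sequence, 6 reached 50% G and C. They were the C-type genes PCDHAC1 (66%), PCDHAC2 (63%), PCDHGC4 (60.7%) and PCDHGC3 (59%), with PCDHGB2 and PCDHGB6.

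**Figure D1:**
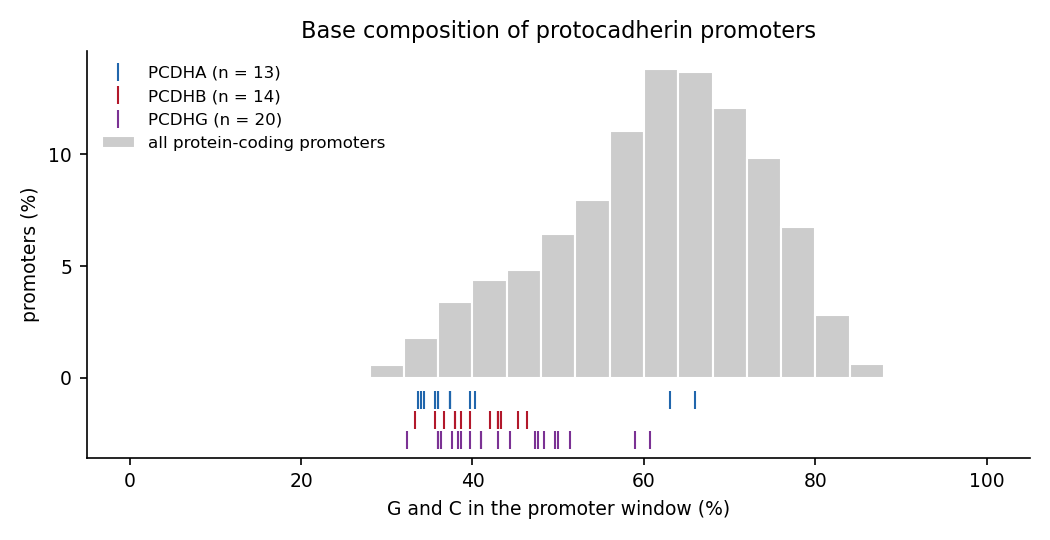
Percent of G and C in the promoter window of 300 bases (x axis), as a histogram of all 15811 protein-coding promoters (grey, percent of promoters on the y axis), with 1 tick for each of 13 PCDHA, 14 PCDHB and 20 PCDHG promoters below it. Most ticks lie to the left of the median of 62.7%, and the ticks near 60% and above are C-type genes.

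Protocadherin promoters were almost bare of all 3 marks. No member had an H3K36me2 or H3K27me3 peak within 1 kb of its start in any of the 4 conditions, and the single H3K27ac peak was that at PCDHB14 in the WT list. Over the 12 lists together, 52 of 53 members (98.1%) had no peak of any mark at the start, against 9557 of 23817 protein-coding starts (40.1%). Genes without a strand in the table were read at both ends, which is why starts outnumber genes. A start counted as bare may still carry a mark at a level below the authors' limit, since the lists hold nothing weaker. How reads that align to several places were handled is not given in the sources used here. If they were left out, starts of closely related genes could look bare for that reason, which was not tested.

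For H3K27ac the share of all starts with a peak was 48.3% for TKO, 48.0% for WT, 49.0% for D1240A and 48.7% for F1295A. The members stood at 0 of 53 in TKO, D1240A and F1295A and at 1 of 53 in WT (1.89%). For H3K36me2 the share of all starts was 12.01% for TKO, 4.37% for WT, 7.86% for D1240A and 10.4% for F1295A, and for H3K27me3 it was 3.52% to 4.78%. A count of 0 of 53 therefore lies far from the background for H3K27ac, and much nearer to it for H3K27me3 and for H3K36me2 in WT.

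**Figure D2:**
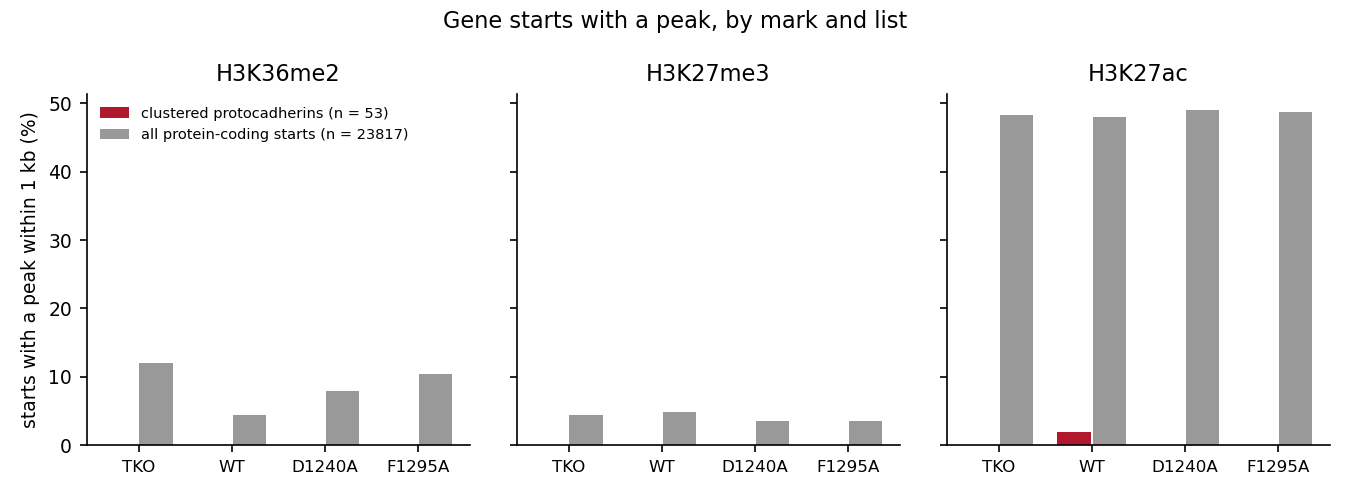
Percent of gene starts with a peak within 1 kb (y axis) for 53 clustered protocadherins (red) and 23817 protein-coding starts (grey), by mark (panels) and condition (x axis). The only red bar is the 1.89% of H3K27ac in WT, beside grey H3K27ac bars of 48.0% to 49.0%.

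Base composition moves with acetylation across the genome. Of 2836 protein-coding promoters with under 50% G and C, 24.7% to 24.9% had an H3K27ac peak within 1 kb of the start, against 64.5% to 65.4% of the 12975 at 50% or more. Of the 41 members in the first class, 1 had such a peak in WT and none did in the other lists, and of the 6 members in the second class none did in any list. The part of base composition in the result was not tested.

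The C-type genes were no different from the others at their starts. PCDHAC1, PCDHAC2, PCDHGC3, PCDHGC4 and PCDHGC5, which neurons express more uniformly than the other members, had no peak of any mark within 1 kb of the start in any of the 12 lists. Over the gene body, PCDHGC3, PCDHGC4 and PCDHGC5 were free of peaks in all 12 lists, and PCDHAC1 and PCDHAC2 in all but the D1240A H3K27me3 list.

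The whole locus held 19 peaks at 8 sites over the 12 lists. TKO had 5 peaks, WT 6, D1240A 4 and F1295A 4, and by mark there were 5 for H3K36me2, 5 for H3K27me3 and 9 for H3K27ac. No list had a peak in the PCDHA variable array, in the stretch between PCDHA and PCDHB or in the PCDHG constant end. The PCDHA constant end held 1 of the sites, the PCDHB array 3, the stretch between PCDHB and PCDHG 3 and the PCDHG variable array 1.

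**Figure D3:**
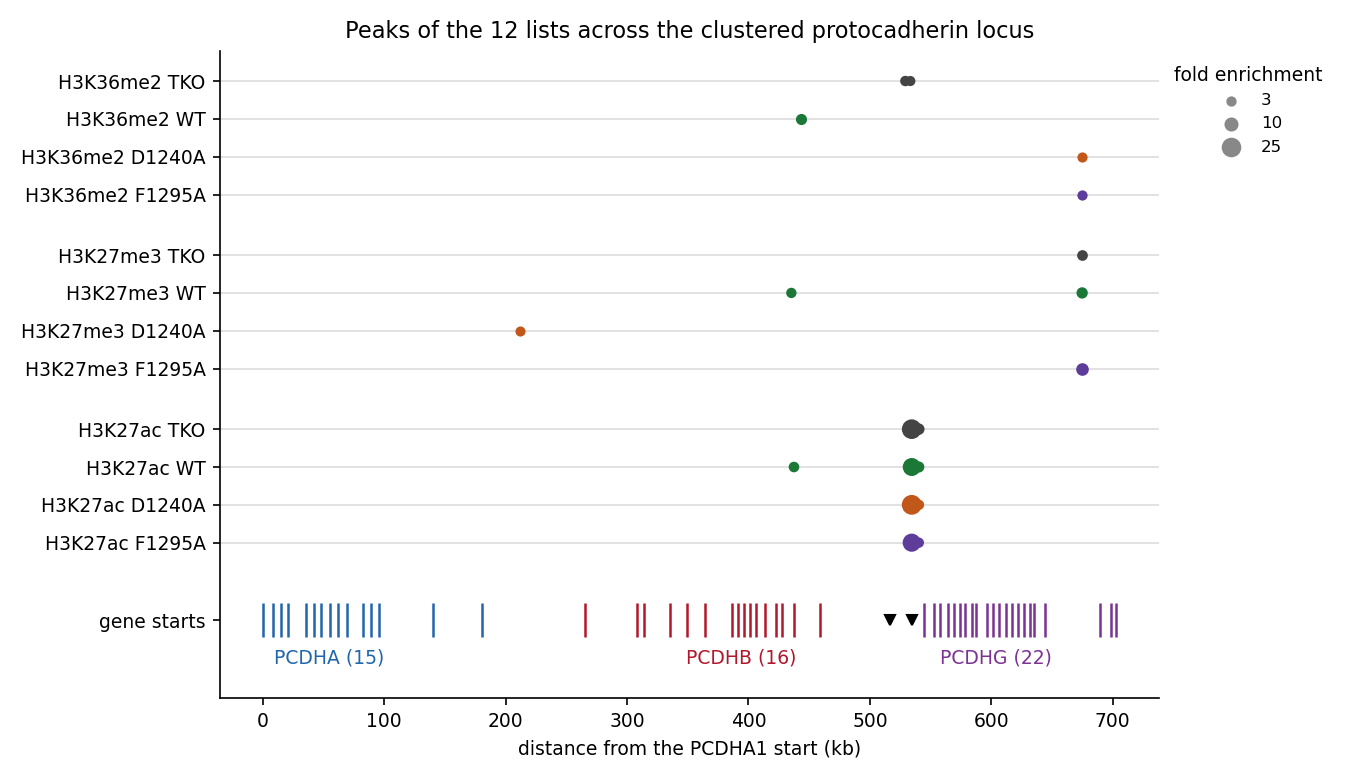
Peaks of the 12 lists (rows) by distance of the summit from the PCDHA1 start in kb (x axis), with the area of a dot growing with its fold enrichment. Bars in the lowest row are starts of 15 PCDHA, 16 PCDHB and 22 PCDHG genes, and black triangles are SLC25A2 and TAF7. The large H3K27ac dots stand at TAF7 in all 4 lists, and the PCDHA starts have no dot above them.

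H3K27ac covered 0.282% to 0.316% of the locus, against 3.94% to 4.24% of chromosomes 1 to 22 and X. The 500 kb next to PCDHA1 were covered over 4.91% to 5.60%, and the 500 kb beyond the PCDHG end over 3.44% to 4.02%. The low cover reaches into the first of these flanks, since the last H3K27ac peak before the cluster ends 74.3 to 74.9 kb before the PCDHA1 start in the 4 lists. Even so, 19 of the 30 protein-coding genes in these flanks had an H3K27ac peak at the start in every list.

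Peaks of the repressive and the NSD2 mark were sparse in the locus. H3K27me3 covered 0.0330% to 0.0886% of the locus, 0% to 0.298% of the flank before it and 0.190% to 0.285% of that after it, against 2.397% to 2.80% of the genome. H3K36me2 covered 0.107% of the locus for TKO, 0.0369% for WT, 0.0416% for D1240A and 0.0449% for F1295A, against 2.81% to 3.80% of the genome. In the flanks it reached 0.217% to 1.04% before the cluster and 0% to 0.448% after it. For these marks both flanks, too, were below the genome's percent in every list. That percent is a mean, and the median over 4155 stretches of the locus' length was lower. This median was 0.193% to 0.289% for H3K27me3 and 0.317% to 0.518% for H3K36me2 in the 4 lists. The locus was below it in every list, while the flank values lay on either side of it.

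The starts of all PCDHA and PCDHB genes, except PCDHB15 in WT, lay in a single interval without H3K27ac peaks. In TKO this interval measured 608 kb and held 31 members, PCDHA1 to PCDHB15, among 32 protein-coding starts. It measured 609 kb in D1240A and 608 kb in F1295A with the same 31 members, and 512 kb with 30 members in WT, where the PCDHB14 peak ends it. By the number of protein-coding starts inside, it ranked 2 in TKO, D1240A and F1295A and 3 in WT among 74329 to 78561 gaps between neighbouring peaks. By length it ranked 614 to 801, well down the list.

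Set against other gene-dense stretches, the locus was among the least acetylated. The chromosomes were divided into 4155 tiles of the locus' own length, of which 145 held at least 20 protein-coding starts. The median dense tile was covered by H3K27ac over 8.73% for TKO, 7.71% for WT, 8.78% for D1240A and 8.74% for F1295A. At or below the locus were 3 dense tiles for TKO (2.07%), 4 for WT (2.76%), 2 for D1240A (1.38%) and 4 for F1295A (2.76%). The 5 tiles that did so in at least 1 list hold beta-defensin and FAM90A genes, beta-globin with olfactory receptor genes, olfactory receptor genes, keratin genes and kallikrein with SIGLEC genes. Like the protocadherin cluster, these tiles hold rows of related genes. For the other marks the locus stood less apart, with 9 to 20 dense tiles at or below it for H3K36me2 and 10 to 26 for H3K27me3. Among all 4155 tiles the locus was less extreme. The median tile was covered by H3K27ac over 1.59% to 1.67%, and 20.2% to 21.3% of tiles were at or below the locus. For H3K36me2 this share was 14.2% to 23.4%, and for H3K27me3 13.4% to 29.8%.

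**Figure D4:**
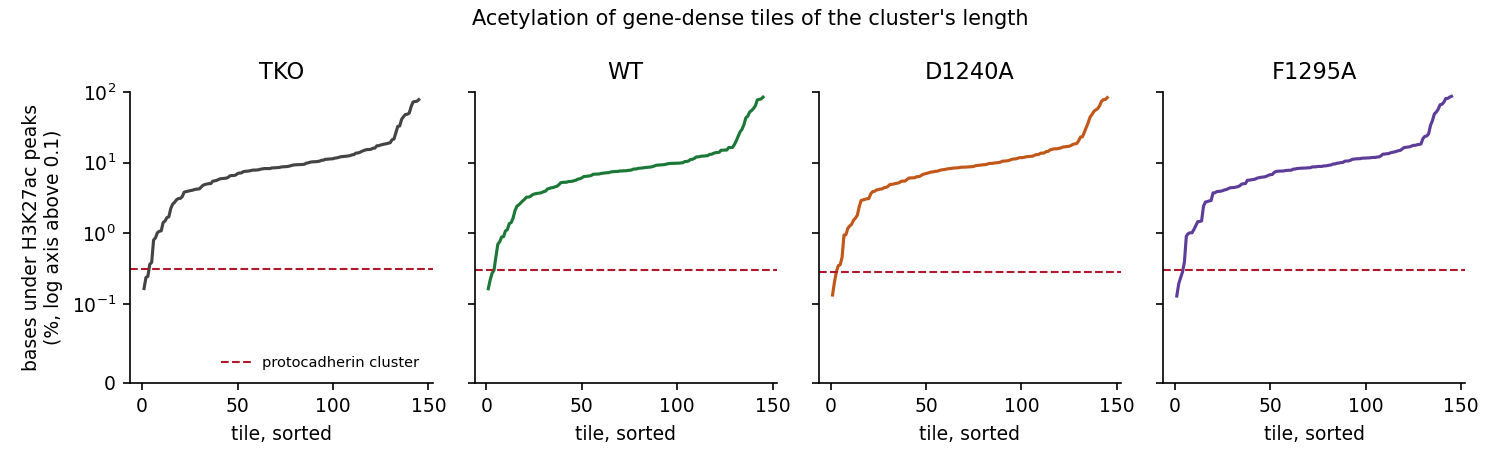
Percent of bases under H3K27ac peaks (y axis, logarithmic above 0.1%) in the 145 tiles of the locus' length with at least 20 protein-coding starts, sorted from low to high (x axis), 1 panel per condition. The dashed line is the protocadherin cluster, at 0.282% to 0.316%, near the low end of every curve.

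In the comparison of WT with TKO, which shows the cells with and without added wild type NSD2, the protocadherin starts held no H3K36me2 or H3K27me3 peak on either side. The first 2.5 kb from each start, taken for the variable exon since exon positions were not used here, had 0% under peaks of either mark in all 4 lists for all 53 members. Thus 0 of 53 members were called for H3K36me2 at a difference of 25 points of this window, where 5.18% of all starts were lower and 0.529% higher in WT than in TKO. For H3K27me3 the background was 0.878% higher and 0.584% lower. With no peak in either list a call was not possible, so these counts carry the absence of peaks and not a stability of the marks.

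The same held for the mutants against WT. For D1240A, 2.22% of all starts were higher and 0.474% lower in H3K36me2, 0.248% higher and 1.17% lower in H3K27me3, and 0 of 53 members were called for either mark. For F1295A the backgrounds were 3.92% higher and 0.302% lower in H3K36me2 and 0.294% higher and 1.07% lower in H3K27me3, again with 0 of 53 members called.

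For H3K27ac, PCDHB14, a single-exon protocadherin gene of the beta family (141223343 to 141227759), was the only member called. It had a peak near its start in WT and none in TKO, D1240A or F1295A. The WT peak runs from 141223506 to 141223704, 163 to 361 bp after the start and thus inside the gene. At its summit 22 fragments were piled up, with an exact Poisson interval at 95% of 13.8 to 33.3 for counting error alone. Its fold enrichment over the genome-wide background of the list was 3.48, below the WT list's median of 4.08, and 36.5% of that list's peaks were lower. PCDHB14 is therefore 1 of 53 members gained in WT against TKO, where 1.41% of all starts were gained and 1.74% lost. It is 1 of 53 lost in D1240A against WT (0.995% of all starts lost, 1.97% gained) and in F1295A against WT (1.02% lost, 1.76% gained). These 3 calls share the one WT peak, and 1 of 53 is near the background share. The weakest peaks listed for TKO, D1240A and F1295A had pileups of 14, 13 and 13, inside the interval of the WT value or just below it, so a weak signal under the limit is not distinguishable from none.

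PCDHB14 was also flanked by the other WT peaks of the PCDHB array. An H3K27me3 peak at 141221417 to 141221681 had a pileup of 15 (8.40 to 24.7) and a fold enrichment of 3.12. It lies between PCDHB13 and PCDHB14, 2438 bp after the end of the former and 1662 bp before the start of the latter. An H3K36me2 peak at 141229571 to 141229838 had a pileup of 27 (17.8 to 39.3) and a fold enrichment of 4.33, and it starts 1812 bp after the PCDHB14 end. The 3 peaks, each of another mark, fall within 8.42 kb, and no other list has a peak of any mark in the PCDHB array. The 16 PCDHB genes are close paralogs, and how reads that align to several places were handled is not given in the sources used here, so the gene these fragments came from is uncertain.

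The strongest acetylation in the locus belonged to TAF7 and not to a protocadherin. The TAF7 peak had a fold enrichment of 25.2 in TKO (pileup 167, interval 143 to 194), 20.1 in WT (132, 110 to 157), 25.7 in D1240A (159, 135 to 186) and 20.5 in F1295A (128, 107 to 152). It was thus present at a high level in all 4 lists, and its summits lie 195 to 247 bp inside the gene. TKO alone had an H3K36me2 peak in TAF7, of fold enrichment 2.74 (pileup 17). Another TKO H3K36me2 peak, at 141315279 to 141315492, had a fold enrichment of 3.20 (pileup 20, 12.2 to 30.9). SLC25A2, a mitochondrial carrier gene and the only other protein-coding gene in the locus, had no peak at its ends in any list.

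The nearest acetylation to a PCDHG gene was a weaker site before PCDHGA1, the first gene of that family. Its summits lie 3.93 to 4.11 kb before the PCDHGA1 start and at least 5.62 kb from the TAF7 start. Its fold enrichment was 4.95 in TKO (pileup 32, 21.9 to 45.2), 4.23 in WT (27, 17.8 to 39.3), 2.89 in D1240A (17, 9.90 to 27.2) and 3.02 in F1295A (18, 10.7 to 28.4). Both mutant lists were lower than TKO and WT, while the counting intervals of all 4 overlap. On the fold enrichment scale the intervals were 1.75 to 4.53 in D1240A and 1.86 to 4.68 in F1295A. Both reach below the lowest fold enrichment of their list, 2.25 for D1240A and 2.23 for F1295A.

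The D1240A value was 0.683 of the WT value and the F1295A value 0.714 of it. Over 49353 TKO H3K27ac peaks with an overlapping peak in all lists, the median ratio was 1.06 for D1240A against WT and 1.05 for F1295A against WT, and 4.66% and 4.84% of these peaks had a ratio as low or lower. At TAF7 the same ratios were 1.28 and 1.02. WT against TKO was 0.855 at the PCDHGA1 site, beside a median of 0.960. D1240A against TKO was 0.584 there, beside a median of 1.03, and 0.742% of peaks were as low or lower. F1295A against TKO was 0.610, beside a median of 1.01, and 1.08% of peaks were as low or lower. The percents are taken over shared peaks of any strength, and not over peaks as weak as this site. The site was noticed for being present in all 4 lists, and without replicates the spread between cultures behind these ratios is unknown.

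**Figure D5:**
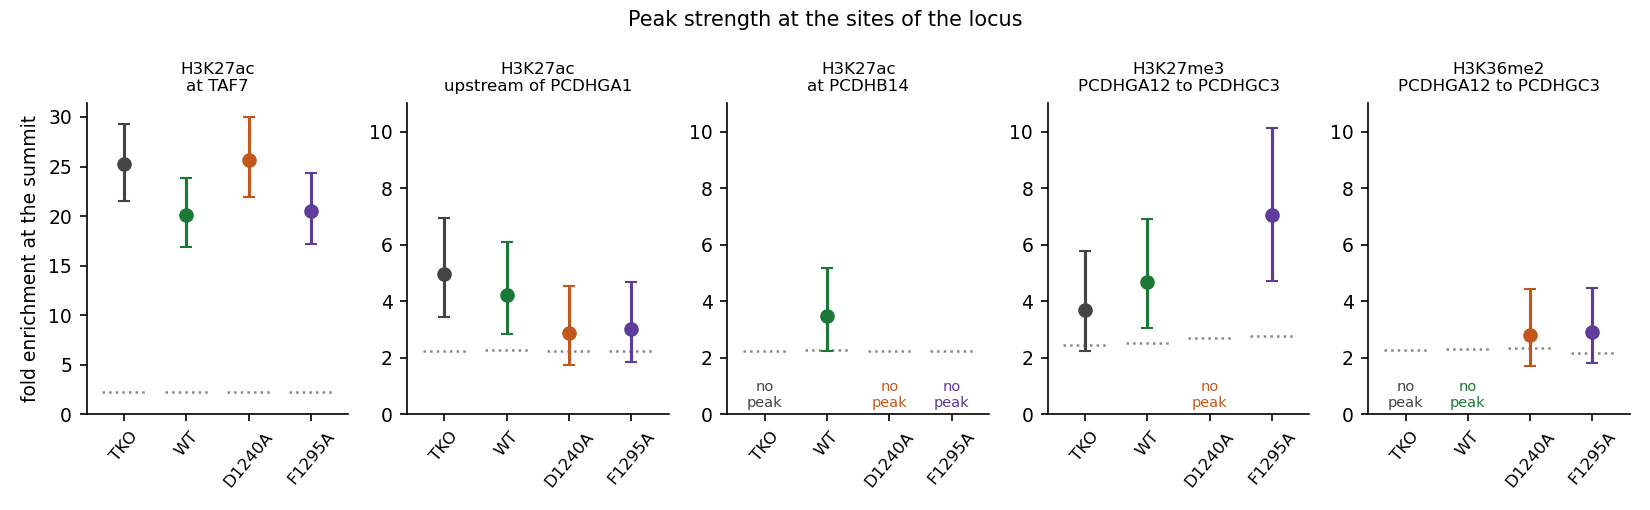
Fold enrichment at the summit (y axis) by condition (x axis) at the sites found in more than 1 list and at PCDHB14, with exact Poisson 95% intervals of the pileup on the same scale. Dotted lines give the lowest fold enrichment in each list, and the first panel has its own scale. TAF7 lies at 20.1 to 25.7, and the other sites at 2.82 to 7.04. The interval reaches down to the dotted line at PCDHB14, at both H3K36me2 peaks and at the TKO H3K27me3 peak. It also does so at the D1240A and F1295A peaks before PCDHGA1.

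The PCDHG variable array had a single site, which carried H3K27me3 or H3K36me2 in 5 lists. It lies at 141460626 to 141461096, 30.1 kb after the PCDHGA12 start and 14.9 kb before the PCDHGC3 start, inside the body of 19 PCDHG genes, from their variable exons to the shared end. H3K27me3 fold enrichment was 3.67 in TKO (pileup 17, 9.90 to 27.2), 4.68 in WT (23, 14.6 to 34.5) and 7.04 in F1295A (27, 17.8 to 39.3), with no peak in D1240A. H3K36me2 had a peak in D1240A, at 2.82 (17, 9.90 to 27.2), and in F1295A, at 2.91 (19, 11.4 to 29.7), and none in TKO or WT. F1295A was thus the only condition with peaks of both marks listed at the site. For H3K36me2 the lowest fold enrichments listed for TKO (2.28) and WT (2.32) lie inside the intervals of the D1240A (1.71 to 4.42) and F1295A (1.81 to 4.46) values, so a missing peak there is not distinguishable from a weak signal. The lowest fold enrichment in the D1240A H3K27me3 list is 2.70. It lies below the intervals of the F1295A value (4.73 to 10.1) and the WT value (3.04 to 6.93) on the same scale. It lies inside that of TKO (2.23 to 5.76). A D1240A peak at this lowest value has an interval of its own, 1.42 to 4.75, which overlaps all 3. The overlap with F1295A is only from 4.73 to 4.75, and an overlap does not show that values are alike. Whether D1240A differed from the other lists here was not tested. Since values under the limit are not listed, the comparison cannot separate a missing peak from one just under the limit.

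Peaks of both marks often coincide in these data. In F1295A, 60.6% of all H3K27me3 peaks overlapped an H3K36me2 peak and 28.3% of all H3K36me2 peaks overlapped an H3K27me3 peak. Of 222780 sites joined over the 8 lists of these marks, 12.9% were found in at least 5 lists. The site covered at most 0.460% of a PCDHG body, that of PCDHGA12 in the WT H3K27me3 list, and 0% of PCDHGC3, PCDHGC4 and PCDHGC5, which start after it.

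The PCDHA family had 1 peak in the 12 lists, of H3K27me3 in D1240A. It lies at 140997723 to 140997962 in the constant end, 31.2 kb after the PCDHAC2 start and 14.4 kb before the end that all 15 PCDHA genes share, so it falls in the body of each. It covered 0.106% of PCDHA1, the longest body, and 0.523% of PCDHAC2, the shortest. Its pileup of 10 (4.80 to 18.4), with a fold enrichment of 2.70, is the lowest in that list, so it sits at the authors' limit.

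Other protocadherins, which lie alone rather than in clusters, were acetylated more often than the clustered ones, though less often than all protein-coding starts. Of 12 non-clustered protocadherin genes, 3 had an H3K27ac peak at the start in all 4 lists, beside 46.1% of all starts. Of these 3, PCDH10 was read at both ends, since its strand was not given. PCDH9 had a fold enrichment of 15.5 for TKO, 11.5 for WT, 17.5 for D1240A and 14.2 for F1295A. PCDH10 had 12.9, 7.86, 13.5 and 10.3, and PCDH18 had 14.1, 13.6, 18.8 and 13.99, in the same order. All 3 had their lowest value in WT, with no replicate error to set it against. Shared H3K27ac peaks across the genome were also lower in WT at the median. The median ratio was 0.960 for WT against TKO, 1.06 for D1240A against WT and 1.05 for F1295A against WT. None of the 12 genes was called in any contrast for any mark. PCDH1, which lies on chromosome 5 as well, had an H3K27me3 peak in all 4 lists, at 3.67, 4.29, 3.92 and 4.02, and no H3K27ac peak.

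The machinery known to act on the clusters had acetylated promoters. All 20 listed regulators had an H3K27ac peak at the start in each of the 4 lists, beside 46.1% of all starts. Among them were CTCF, the cohesin subunit genes RAD21, SMC1A and SMC3, the silencing factor gene SMCHD1 and the DNA methyltransferase genes. A listed gene without a strand was read at both ends and counted if either end had a peak. SETDB1, which encodes an H3K9 methyltransferase that represses clustered protocadherins in mouse neurons, was the only regulator called for H3K36me2. Peaks covered 100% of its first 2.5 kb for TKO, 39.0% for WT, 78.2% for D1240A and 100% for F1295A. This peak cover was thus lower in WT against TKO and higher in both mutants against WT. These calls are 1 of 20 regulators in each contrast. In the same direction 5.18%, 2.22% and 3.92% of all starts were called, so the list's share is near the background. Whether the genes next to SETDB1 changed in the same way was not tested. TRIM28, a corepressor that works with SETDB1, was called for H3K27ac at 1 of the 2 ends read, since its strand was not given.

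Of 9 genes for signalling partners and proteases of protocadherins, 7 had H3K27ac at the start in WT, 8 in TKO and F1295A and 9 in D1240A. The share of all starts was 48.0% to 49.0% in the 4 lists. CYFIP1, a subunit of the WAVE complex that protocadherins recruit, had a fold enrichment of 2.85 in TKO, 3.53 in D1240A and 3.34 in F1295A and no peak in WT. PTK2, the focal adhesion kinase gene, had a peak in D1240A alone, at 2.73. Of the 9 genes, 1 was thus lost in WT against TKO, beside 1.74% of all starts. In D1240A against WT 2 were gained, beside 1.97%, and in F1295A against WT 1, beside 1.76%. These peaks are below the median fold enrichments of the H3K27ac lists (4.08 to 4.29), and the lowest listed are 2.23 to 2.27. There is no replicate error to set them against. Among the 30 flanking genes, APBB3, FCHSD1 and HARS1 were called lower for H3K36me2 in WT against TKO, 3 of 30 beside 5.18% of all starts. Peaks covered 49.7%, 28.8% and 26.6% of their first 2.5 kb in TKO and 0% in WT. These values are peak cover and do not give the amount of the mark. No flanking gene was called in any other contrast or mark.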

How the data were processed

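The series has 24 immunoprecipitates (4 conditions, 3 marks, 2 replicates) and 4 inputs, which are not analysed here. Per the submitters' processing notes, the tools were MACS2 (2.2.7.1), Bowtie2 (2.4.5), FastQC (0.11.4) and Trimmomatic (0.36), with GRCh38 as the build. Per the file headers, a single MACS run on both replicates made each of the 12 lists, without a control or local background, at a q-value limit of 0.05 and with duplicates at a position reduced to 1 fragment. The handling of reads with several alignments is not given in the sources used here.

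The deposited signal is the pileup, the fragments over a summit, which per the file headers is not scaled for depth. The deposited fold enrichment is a ratio, the pileup plus 1 over 1 constant per list, checked from the values. The authors also deposited −log10 q values against the same background, used here for a stricter limit.

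Gene positions were read from the RefSeq gene table (GRCh38.p14, no exons), and strands from its promoter table, which held 47 of 53 members, all on the plus strand. The other 6 were placed at their lower coordinate, and other genes without strand at both ends. Of 19970 genes, 153 with scaffold coordinates were left out. For H3K36me2 and H3K27me3, peaks under 1 kb apart were merged, and a start was called at a difference of 25 points of its first 2.5 kb. An H3K27ac gain or loss is a peak within 1 kb on either side of the start in one list only. Contrasts were WT against TKO and each mutant against WT, and they share the WT lists. Named were members called, family extremes, C-type genes, other genes in the locus and called members of the context lists. Members and lists were chosen with earlier results of these data known. Exact Poisson intervals at 95% cover counting error only. Alternatives were no merging, merging within 3 kb, −log10 q of at least 5, equal covered length, a limit of 50 points, other windows, 50 percent cover, and H3K27ac peaks with no counterpart in the compared list. The steps were tested on simulated data and run in Python (3.11.15) with pandas (2.3.3), numpy (2.4.6), matplotlib (3.10.9) and SciPy (1.17.1).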

Additional observations from a re-analysis of the deposited data

How the results depend on the processing

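Of 114 counts of called members under the alternatives, 111 were the same as reported, and 39 of 48 percents of the locus covered stayed within 1.5 times the reported value. With at least 50 percent of the H3K27ac window under peaks, the members gained in WT against TKO, lost in D1240A against WT and lost in F1295A against WT each numbered 0 in place of 1, since the PCDHB14 peak is shorter than that. With a −log10 q of at least 5, H3K36me2 covered 0% of the locus in TKO, D1240A and F1295A in place of 0.107%, 0.0416% and 0.0449%. H3K27me3 then covered 0% in TKO and D1240A in place of 0.0341% and 0.0330%, and 0.0521% in WT in place of 0.0886%. At equal covered length, H3K36me2 covered 0.0294% in TKO and 0% in F1295A, and H3K27me3 0.0521% in WT. The H3K27ac percents stayed within 1.5 times under all alternatives run. No paired analysis was possible because each list was called on both replicates together. For the same reason no replicate could be left out. Depth limits the weak sites: the H3K27me3 lists rest on fewer fragments than the others, and apart from TAF7 each site of the locus had at most 32 fragments at its summit. Where a site was listed in several conditions for a mark, the counting intervals overlapped, which does not show that the values were alike. Differences between lists have no replicate error.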
